A study of Saccharomyces cerevisiae with 17 samples.

Results

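Genes of the yeast machinery that cuts and polyadenylates messenger RNA precursors were followed in SMORE-seq tables of wild-type Saccharomyces cerevisiae. They are 10 named genes, FIP1, PAP1, CFT1, CFT2, YSH1, RNA14, RNA15, PCF11, CLP1 and HRP1, of 5797 identifiers in each table. The members were chosen by name, as subunits of the machinery. FIP1 and CLP1 were chosen also because their counts differ strongly between tables, so those differences are described here and support nothing. SMORE-seq records where transcripts begin, from adapters ligated to the 5′ ends of RNA.

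The series holds 17 samples, of which 5 were SMORE-seq samples, and the 12 others, from chromatin, were not analysed here. All 5 came from total RNA of wild-type cells of the strain BY4741, which carries deletions at his3, leu2, met15 and ura3 and has mating type a, after growth in YPD, a rich medium, to an OD600 of 0.8. The ribo depletion group had 3 samples that share 1 table of counts, and their labels name neither TAP nor CIP. The PolyA-selected Tap-treated group, called TAP here, had 1 library. TAP stands for tobacco acid pyrophosphatase, which opens the 5′ cap so that the end can be ligated. The PolyA-selected CIP-treated Tap-treated group, called CIP/TAP, also had 1 library. CIP stands for calf intestinal phosphatase, which removes the phosphate from uncapped 5′ ends and so keeps them from ligation. The series design states that these libraries were made to map transcripts. With 1 table per group, no test between groups was possible and the differences have no replicate check.

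A messenger RNA precursor in yeast is cut at its 3′ end and a poly(A) tail is then added. The cleavage and polyadenylation factor, CPF, holds the nuclease and the poly(A) polymerase, and the cleavage factors CF IA and CF IB bind the RNA and help to place the cut. The same factors act in the termination of transcription by RNA polymerase II.

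In total, ribo depletion held 2821480 counts, TAP 864536 and CIP/TAP 1097457. Where 0 was listed, up to 3 counts remain possible, a limit of 1.06, 3.47 and 2.73 CPM in that order (CPM are counts after every table is scaled to the same total). Intervals are exact 95% Poisson or Clopper-Pearson intervals and cover counting error only. Of the genes at which the strain carries deletions, LEU2, URA3 and MET17 (met15) had no counts, as had 39.6% of all identifiers. HIS3 had 655, 650 and 730 counts and has a divergent gene, MRM1, 237 bp upstream. Whether these are reads of HIS3 itself was not tested. Across the tables counts went with a divergent upstream neighbour, so a count is read as the count listed under an identifier and not as the expression of that gene.

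Counts differed widely among the 10 genes. The shares with at least 10 counts lay above those of all identifiers, and the share at 0 in all tables lay below. With 10 genes, and FIP1 and CLP1 chosen for their counts, nothing is read from these shares. At least 10 counts were listed for 5 of the 10 genes in ribo depletion, 5 in TAP and 6 in CIP/TAP, where all identifiers gave 31.5%, 37.1% and 33%. Of the 10 genes, 6 passed 10 counts in some table, where 47.7% of all identifiers did. PAP1, RNA14, RNA15 and YSH1 passed 10 counts in all 3 tables, as did 22.2% of all identifiers. CFT1, CFT2 and HRP1 were at 0 in all 3 tables, which held for 39.6% of all identifiers. The median count of the 10 genes was 11 in ribo depletion, 22.5 in TAP and 90 in CIP/TAP. Over all identifiers it was 0 in each table. FIP1 and CLP1, chosen for their counts, are among the 6. The plot of CPM by gene shows all values.

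**Figure D1:**
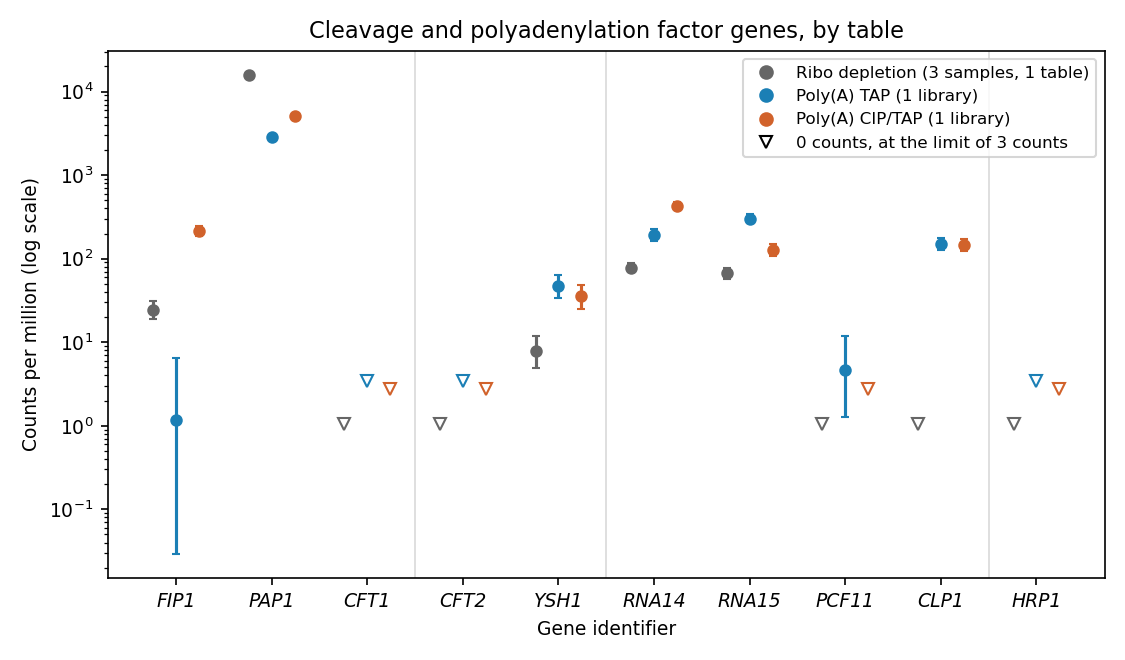
CPM (log axis) of the 10 genes in the ribo depletion table, the TAP library and the CIP/TAP library, with exact 95% Poisson intervals; open triangles mark 0 counts, drawn at the limit of 3 counts, and vertical lines separate the polymerase module, the nuclease module, CF IA and CF IB. PAP1 lies far above the other genes, FIP1 has 1 count in TAP, CLP1 has 0 in ribo depletion, and CFT1, CFT2 and HRP1 have 0 throughout.

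PAP1 encodes the poly(A) polymerase itself, the enzyme that adds the tail. Its identifier (YKR002W, R64 chromosome XI, 443232 to 444938) had 44502 counts in ribo depletion, 2504 in TAP and 5531 in CIP/TAP. It was the 9th highest of all identifiers in ribo depletion, the 56th in TAP and the 29th in CIP/TAP. Per kb of coding length its level was 9240 CPM in ribo depletion (9154 to 9326), 1697 in TAP (1631 to 1765) and, with CIP/TAP, 2952 (2875 to 3031), ranks 15, 117 and 60 of 5794. PAP1 alone held 98.9% of the counts of the 10 genes in ribo depletion (98.8 to 99.0%), 80.6% in TAP (79.2 to 82.0%) and, with CIP/TAP, 84.0% (83.1 to 84.9%). A sum over the machinery therefore mostly repeats PAP1. Without it the other 9 genes summed to 500, 603 and 1052 counts, or 177, 697 and 959 CPM, so that ribo depletion was lowest. Of these counts FIP1 had 69, 1 and 237 and CLP1 had 0, 130 and 160. Both were chosen for their counts, so nothing is read from the order of the sums. With PAP1 the sum was 15950, 3594 and 5998 CPM, so that ribo depletion was highest.

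FIP1 encodes the subunit that tethers the poly(A) polymerase to CPF. Its identifier (YJR093C, chromosome X, 603220 to 604203) had 69 counts in ribo depletion, 1 in TAP and 237 in CIP/TAP. The level was 24.5 CPM (19.0 to 30.9), 1.16 CPM (0.029 to 6.44) and 216.0 CPM (189.3 to 245.3) in that order. The 3 intervals do not overlap, and TAP was the low table while both others were well above the limit of 3 counts. Among all 5797 identifiers FIP1 was the single identifier with at most 1 count in TAP and at least 200 in CIP/TAP. These limits were set after its counts were known. CFT1 (YDR301W, chromosome IV, 1063352 to 1067425), the large scaffold of the polymerase module, had 0 counts in every table.

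YSH1 encodes the endonuclease that cuts the RNA. It had few counts in each table, 22 in ribo depletion, 41 in TAP and 39 in CIP/TAP (YLR277C, chromosome XII, 697156 to 699495). The level was 7.80 CPM (4.89 to 11.8), 47.4 (34.0 to 64.3) and 35.5 (25.3 to 48.6), so the poly(A) libraries overlapped each other and both lay above ribo depletion on the scale of total counts. CFT2 (YLR115W, chromosome XII, 377985 to 380564), its partner in the nuclease module, had 0 counts in every table.

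In CF IA, RNA14 encodes the scaffold and RNA15 the subunit that binds RNA near the cleavage site. RNA14 (YMR061W, chromosome XIII, 392755 to 394788) had 221 counts in ribo depletion, 167 in TAP and 475 in CIP/TAP. RNA15 (YGL044C, chromosome VII, 416146 to 417036) had 188, 260 and 141. RNA14 was thus highest in CIP/TAP and RNA15 highest in TAP. Within a table their ratio does not depend on scaling. RNA14 held 54.0% of their summed counts in ribo depletion (49.1 to 58.9%), 39.1% in TAP (34.5 to 43.9%) and, with CIP/TAP, 77.1% (73.6 to 80.4%). The TAP and CIP/TAP shares lie on opposite sides of the ribo depletion share, with no overlap of the intervals.

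Between FIP1 and YSH1, both of CPF, FIP1 held 75.8% of the summed counts in ribo depletion (65.7 to 84.2%), 2.38% in TAP (0.060 to 12.6%) and 85.9% with CIP/TAP (81.2 to 89.8%). TAP alone had more counts for YSH1, with 1 for FIP1 and 41 for YSH1. FIP1 was chosen for its counts, so nothing is read from these shares.

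CLP1 encodes an ATP-binding subunit of CF IA that contacts Pcf11. It had 0 counts in ribo depletion, 130 in TAP and 160 in CIP/TAP (YOR250C, chromosome XV, 800970 to 802307). The poly(A) libraries overlapped at 150.4 CPM (125.6 to 178.6) and 145.8 CPM (124.1 to 170.2), and ribo depletion had no count at a limit of 1.06 CPM. Of all identifiers, 6 had 0 counts in ribo depletion and at least 100 in each poly(A) library, limits set after the counts were known: CLP1, NFT1, NIP100, SLM5, SNX41 and SUR1. PCF11 encodes the subunit that binds the tail domain of RNA polymerase II. It had 4 counts in TAP and 0 in both other tables (YDR228C, chromosome IV, 921926 to 923806), close to the limit of 3 counts. HRP1 (YOL123W, chromosome XV, 87844 to 89448), the RNA-binding protein of CF IB, had 0 counts in every table.

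The order of the levels changed with the table. Per kb of coding length, RNA15 followed PAP1 in TAP at 337.5 CPM (297.7 to 381.1), and CLP1 at 112.4 (93.9 to 133.4) and RNA14 at 94.97 (81.1 to 110.5) came next and overlapped each other. In CIP/TAP, FIP1 at 219.5 (192.4 to 249.3) and RNA14 at 212.8 (194.1 to 232.8) followed PAP1 and overlapped, ahead of RNA15 at 144.2 (121.4 to 170.1) and CLP1 at 109.0 (92.7 to 127.2), which also overlapped. In ribo depletion the order after PAP1 was RNA15 at 74.8 (64.5 to 86.3), RNA14 at 38.5 (33.6 to 43.9), FIP1 at 24.9 (19.3 to 31.5) and YSH1 at 3.33 (2.09 to 5.04). RNA14 and RNA15 overlap in ribo depletion without the division by length, at 78.3 CPM (68.3 to 89.4) and 66.6 CPM (57.4 to 76.9). Reads mark 5′ ends, whose number need not grow with length.

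CIP/TAP against TAP asks which 5′ ends stay when uncapped phosphates are removed first. Among the genes of the machinery, FIP1 and RNA14 were higher by 2-fold or more in CIP/TAP and RNA15 was lower by as much. Ratios are log2 of counts with 0.5 added, scaled with TMM factors (edgeR's trimmed mean of the ratios), and were measured where both tables together held at least 50 counts. FIP1 was at 7.12 (95% interval 5.21 to 13.01), a ratio that rests on the 1 count in TAP and was 5.15 with 5 added to each count. RNA14 was at 1.32 (1.07 to 1.59) and RNA15 at −1.06 (−1.37 to −0.77). PAP1 was just short of 2-fold at 0.96 (0.89 to 1.03). CLP1 at 0.11 (−0.23 to 0.46) and YSH1 at −0.25 (−0.93 to 0.41) had intervals that span 0. That makes 2 higher and 1 lower of 6 measured genes, where 22.2% and 15.6% of 1679 measured identifiers were higher and lower. FIP1 was chosen for this difference and was measured through its CIP/TAP count alone, so nothing is read from the tally of 6. Without FIP1 and CLP1, 1 of 4 measured genes was higher and 1 lower, with a median of 0.35 beside 0.16 for all measured identifiers. CFT1, CFT2, PCF11 and HRP1 were not measured in any comparison.

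TAP against ribo depletion sets RNA chosen for its poly(A) tail beside RNA from which ribosomal RNA was removed, and the enzyme treatment cannot be told apart from the selection. PAP1 and FIP1 were lower in TAP, CLP1 and YSH1 were higher, and RNA14 and RNA15 were within 2-fold. PAP1 was at −3.73 (−3.79 to −3.67), which is 13.3-fold lower, and at −2.44 with total counts. FIP1 was at −5.11 (−11.01 to −3.16), again from the 1 count in TAP, and at −3.20 with 5 added to each count. CLP1, at 0 in ribo depletion, was at least 58.0-fold higher in TAP, a bound set against a floor of 3 counts per table. The lower end of its exact 95% interval was 5.54 on the log2 scale, below that bound. YSH1 was at 1.30 (0.54 to 2.14), or 2.59 with total counts, RNA15 at 0.89 (0.61 to 1.17) and RNA14 at 0.02 (−0.28 to 0.31). The genes counted as 2 higher and 2 lower of 6 measured, where 31.9% of 1646 identifiers were higher and 38% lower. FIP1 and CLP1, chosen for these differences and each measured through its high table alone, make 1 of the lower and 1 of the higher genes. Without them 1 of 4 measured genes was higher and 1 lower, with a median of 0.45 beside −0.18 for all measured identifiers. With total counts in place of TMM factors, the median over all measured identifiers shifted by 1.28, RNA14 was at 1.30 and RNA15 was at 2.17. Upper-quartile factors put RNA15 at 1.26. They turned the calls of all identifiers from 525 higher and 626 lower to 850 and 381 with total counts and 630 and 543 with upper-quartile factors.

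CIP/TAP against ribo depletion used the same ribo depletion table. PAP1 was again lower, and FIP1, RNA14, YSH1 and CLP1 were higher. PAP1 was at −2.70 (−2.74 to −2.66), FIP1 at 2.08 (1.697 to 2.498), RNA14 at 1.41 (1.18 to 1.65) and YSH1 at 1.12 (0.35 to 1.96). With total counts they were at −1.65, 3.14, 2.46 and 2.17. CLP1 was at least 66.1-fold higher against the same floor, with a lower interval end of 5.73 on the log2 scale, again below that bound. RNA15 was at −0.10 (−0.43 to 0.22), or 0.95 with total counts. That gives 4 higher and 1 lower of 6 measured genes, where 36.4% and 35.6% of 1700 measured identifiers were higher and lower. Of the 4 higher genes 2 are FIP1 and CLP1, chosen for their differences, and CLP1 was measured through CIP/TAP alone. Without them 2 of 4 measured genes were higher and 1 lower, with a median of 0.51 beside 0.02 for all measured identifiers. Total counts moved the median of all by 1.05 and turned the calls of all identifiers from 619 higher and 605 lower to 868 and 393. FIP1 thus lay below ribo depletion in TAP and above it in CIP/TAP, while PAP1 lay below it in both.

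**Figure D2:**
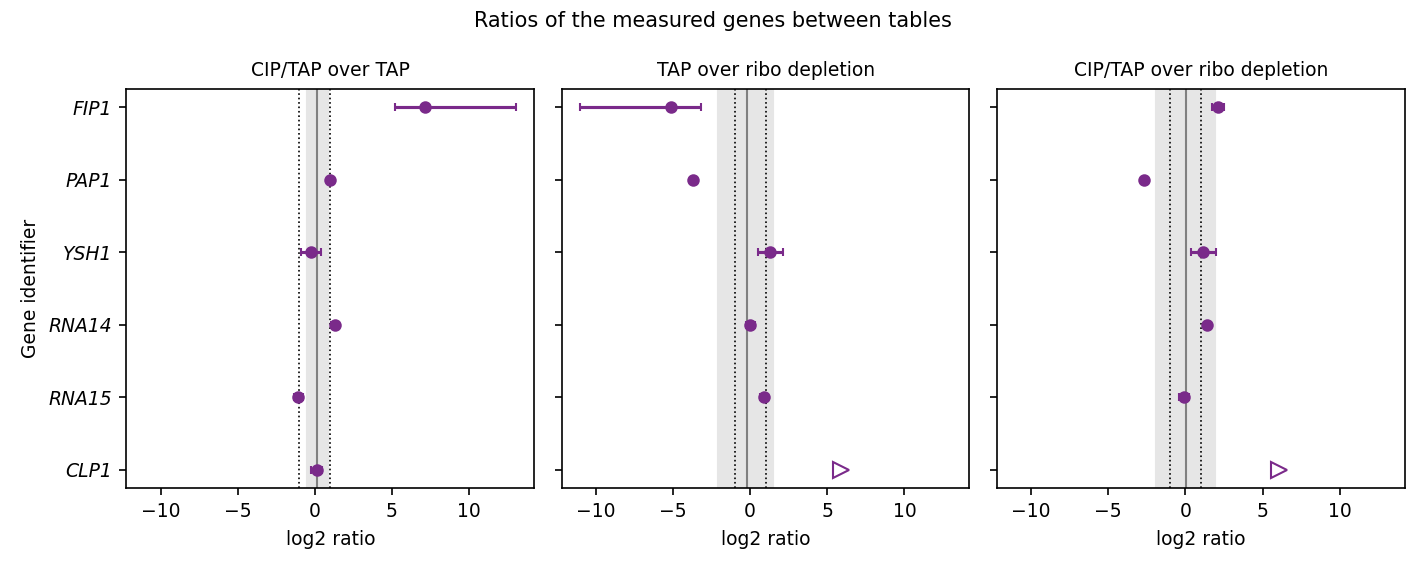
Log2 ratios of the 6 measured genes in the 3 comparisons (TMM scaling, 0.5 added to each count), with exact 95% intervals that cover counting error; open triangles are lower bounds against 0 counts, the grey band and line are the interquartile range and median of all measured identifiers, and dotted lines mark 2-fold. FIP1 lies at 7.12, −5.11 and 2.08, PAP1 at 0.96, −3.73 and −2.70, and RNA14 and RNA15 lie on opposite sides of 0 in CIP/TAP over TAP.

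Relative to the median of all measured identifiers, a difference that other scaling factors leave unchanged, FIP1 was at 6.96, −4.93 and 2.07 in the 3 comparisons in the order given above. PAP1 was at 0.80, −3.55 and −2.72. RNA14 was at 1.16, 0.20 and 1.40, RNA15 at −1.22, 1.07 and −0.12, and YSH1 at −0.41, 1.49 and 1.11. On this scale RNA15 passed 2-fold in TAP against ribo depletion, and the side of 2-fold was otherwise as with TMM factors for these genes.

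The nearest upstream gene was compared because counts in these tables go with it. A gene is called divergent when it lies upstream on the opposite strand and tandem when it lies upstream on the same strand, and distances are the bases between annotated coding spans. RNA14 and RNA15 have divergent neighbours within 500 bp, SAM37 at 239 bp and DST1 at 446 bp, and both passed 10 counts in every table. Over all identifiers with such a neighbour, 82.2% of 1485 passed 10 counts in at least 1 table (80.1 to 84.1%). PAP1, CFT1, CFT2, PCF11 and HRP1 have divergent neighbours farther off, VPS1 at 509 bp, PRO1 at 560 bp, AVL9 at 746 bp, IVY1 at 978 bp and TRM11 at 1086 bp. Of these 5 genes 1, PAP1, passed 10 counts in any table, where 36.2% of 1469 such identifiers did (33.8 to 38.7%). FIP1, CLP1 and YSH1 have tandem neighbours, IME1 at 365 bp, TUM1 at 242 bp and YLR278C at 503 bp. All 3 passed 10 counts in at least 1 table, as did 35.8% of 2831 identifiers with a tandem neighbour (34.0 to 37.6%), with FIP1 and CLP1 chosen for their counts.

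**Figure D3:**
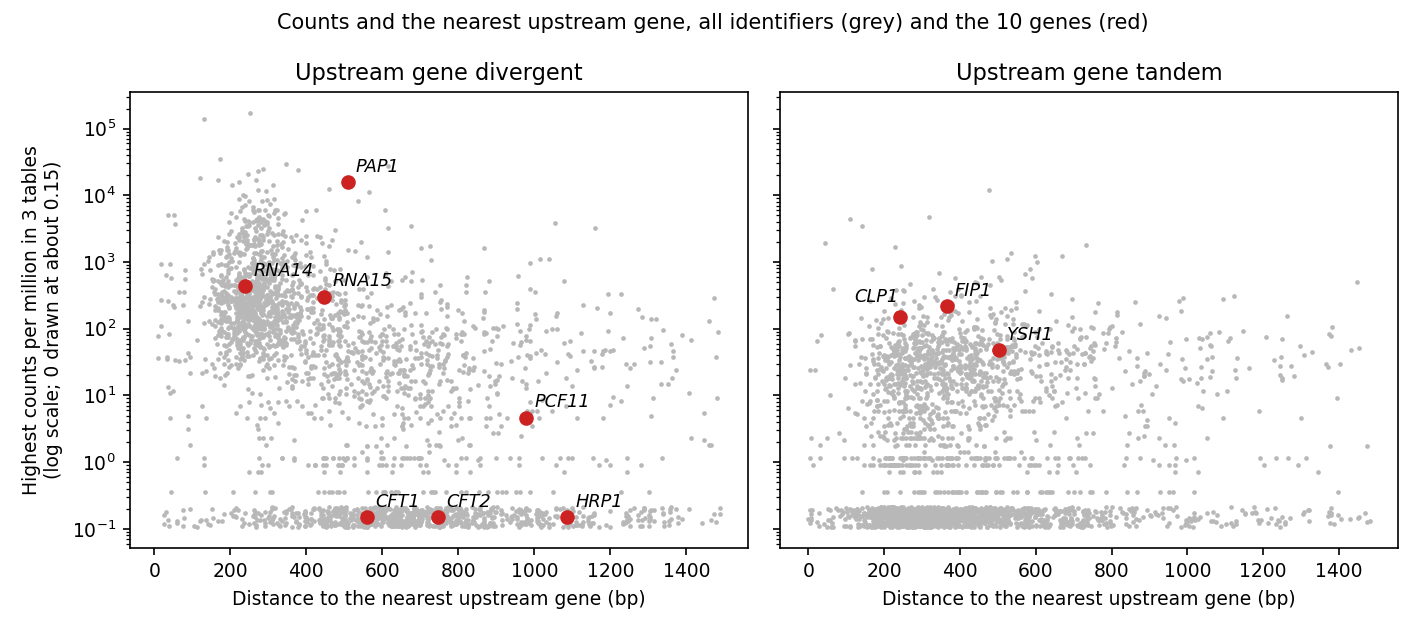
Highest CPM in the 3 tables (log axis, 0 drawn at the bottom with jitter) against the distance to the nearest upstream gene, for identifiers with a divergent (left) or tandem (right) upstream gene, up to the end of the distance axis; grey points are identifiers and red points the 10 genes. PAP1 at 509 bp stands above most identifiers at its distance, CFT1, CFT2 and HRP1 lie at 0 with divergent genes at 560, 746 and 1086 bp, and FIP1, CLP1 and YSH1 have counts beside tandem genes.

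The counts of the upstream genes differed from those of the machinery genes. VPS1, a dynamin-like GTPase gene divergent from PAP1, had 28 counts in ribo depletion, 50 in TAP and 38 in CIP/TAP. PAP1 held 99.9%, 98.0% and 99.3% of the counts of that pair. DST1, the gene of the elongation factor TFIIS, had 0, 18 and 3 counts, so that RNA15 held every count of the pair in ribo depletion, 93.5% in TAP and 97.9% in CIP/TAP. Both genes of the machinery thus held nearly all counts of their pairs in each table.

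RNA14 and SAM37, a gene of the mitochondrial outer membrane sorting machinery, stood in a different order in ribo depletion than in the poly(A) libraries. SAM37 had 582, 65 and 52 counts, and RNA14 held 27.5% of the pair in ribo depletion (24.5 to 30.8%), 72.0% in TAP (65.7 to 77.7%) and, with CIP/TAP, 90.1% (87.3 to 92.5%). SAM37 was at −2.73 (−3.13 to −2.37) for TAP and −3.16 (−3.61 to −2.76) for CIP/TAP against ribo depletion, where RNA14 was at 0.02 and 1.41. Such a difference of order between ribo depletion and both poly(A) libraries was found in 86 of 565 divergent pairs (15.2%) with at most 1000 bp between them and at least 50 summed counts in each table. The order was kept in all 3 tables in 428 (75.8%), among them the pairs of PAP1, RNA15 and PCF11. PCF11 held 4 counts in all beside 197, 67 and 77 of IVY1.

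TUM1, the tandem gene upstream of CLP1, had 1921, 4656 and 5650 counts. It was at 1.70 (1.62 to 1.78) for TAP and 1.87 (1.79 to 1.94) for CIP/TAP against ribo depletion, higher in both poly(A) libraries, as CLP1 was. CLP1 held 0 of 1921 counts of this pair in ribo depletion, 2.72% in TAP (2.27 to 3.22%) and, with CIP/TAP, 2.75% (2.35 to 3.21%). IME1, the tandem gene upstream of FIP1 and a master regulator of meiosis, had 0 counts in every table, and so had BUD4 on its other side. Both neighbours of YSH1, YLR278C and DBP9, were also at 0.

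**Figure D4:**
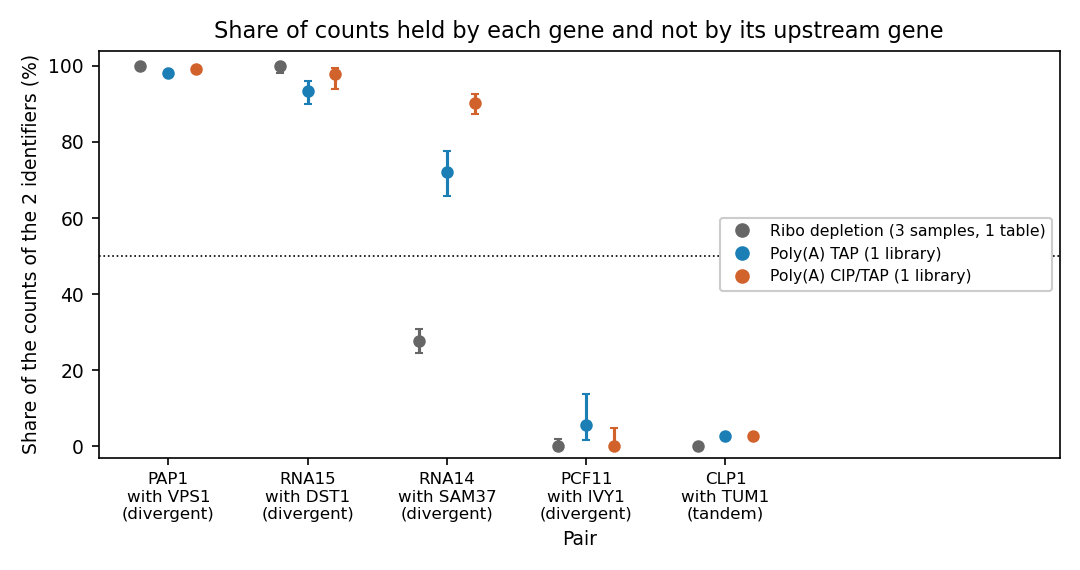
Share of the counts of a gene and its upstream gene that is listed under the gene itself, in percent, with exact 95% Clopper-Pearson intervals, for the 5 pairs named under the axis in 3 tables; the dotted line marks equal counts. RNA14 lies at 27.5% in ribo depletion, 72.0% in TAP and 90.1% in CIP/TAP, while PAP1 and RNA15 hold nearly all and PCF11 and CLP1 few of the counts of their pairs.

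Of the 10 other CPF subunits, 7 passed 10 counts in at least 1 table, where 47.7% of all identifiers did, and 3, REF2, MPE1 and PFS2, were at 0 in all, where 39.6% were. PTA1, a scaffold, had 4088 counts in ribo depletion, 900 in TAP and 1968 in CIP/TAP. YTH1, a zinc-finger subunit, had 11915, 1047 and 2204, SWD2 had 3280, 1156 and 1508, and the phosphatase GLC7 had 565, 54 and 30. All 4 were at least 2-fold lower in TAP than in ribo depletion and 0 of 4 measured were higher, where 38% of all measured identifiers were lower and 31.9% higher. Their median was −2.36, or −1.07 with total counts, beside −0.18 for all measured identifiers. With total counts 2 of the 4 were lower and SWD2 was at 0.20, and with upper-quartile factors 3 were lower. In CIP/TAP against ribo depletion 2 of 4 were lower, where 35.6% of all measured identifiers were. They were YTH1 at −2.13 (−2.19 to −2.06) and GLC7 at −3.90 (−4.51 to −3.40). GLC7 was measured there through its ribo depletion count alone. In CIP/TAP against TAP 1 of 5 was lower, GLC7 at −1.02 (−1.73 to −0.36), or 0 of 5 with DESeq2 size factors or with 5 added to each count. Here GLC7 was measured through its TAP count alone. In both comparisons of CIP/TAP a difference was thus built into its being measured, so nothing is read from its calls there. In CIP/TAP against TAP 0 of 5 were higher. PTA1 at 0.94 (0.83 to 1.06) and YTH1 at 0.89 (0.78 to 1.00) stood close to the 0.96 of PAP1. PTA1, YTH1 and SWD2 have divergent neighbours within 500 bp, ERV46 at 263 bp, RPN7 at 389 bp and MCO12 at 222 bp. PFS2, at 0 in all tables, has such a neighbour as well, HXT14 at 289 bp.

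Among genes that act on the finished tail, PAB1, NAB2 and PAN2 were higher in CIP/TAP. Of 7 genes for poly(A) binding and tail trimming, 3 were measured in CIP/TAP against TAP and 3 were at least 2-fold higher, or 2 with total counts, with upper-quartile factors or with 5 added to each count. Of all measured identifiers 22.2% were higher. PAB1 and NAB2 reached the minimum of 50 counts through CIP/TAP alone, so that a difference was built into their being measured. PAB1, the cytoplasmic poly(A)-binding protein gene, had 0, 5 and 122 counts and was at 4.29 (3.16 to 6.07). NAB2, a nuclear poly(A)-binding protein gene, had 33, 18 and 125 and was at 2.58 (1.89 to 3.41). PAN2, a deadenylase gene, had 47, 57 and 134 and was at 1.04 (0.59 to 1.52). PAB1, NAB2 and PAN2 were also higher in CIP/TAP than in ribo depletion, as were 36.4% of all measured identifiers, and all 3 reached the minimum through CIP/TAP alone. Of the genes of this list, 0 of 2 measured were 2-fold apart in TAP against ribo depletion, or 1 higher with total counts or upper-quartile factors. PAN3, PBP1, CCR4 and POP2 had at most 1 count in any table.

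For mRNA export, MEX67 and MTR2 encode the paired export receptor. MEX67 had 1, 0 and 92 counts and was at least 27.0-fold higher in CIP/TAP than in TAP, set against a floor of 3 counts. The lower end of its exact interval, 4.43 on the log2 scale, lies below that bound. MTR2 had 3, 29 and 191 counts and was at 2.52 (1.97 to 3.15). YRA1, with 0, 22 and 29 counts, was at 0.21 (−0.63 to 1.08), and SUB2 had 0 throughout, so that 2 of 3 measured were higher in CIP/TAP, where 22.2% of all measured identifiers were. MEX67 and MTR2 were also higher in CIP/TAP than in ribo depletion, as were 36.4% of all measured identifiers. In both comparisons they reached the minimum of 50 counts through CIP/TAP alone, so nothing is read from their count, and no gene of the list was measured in TAP against ribo depletion.

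Of the 5 genes for capping and cap binding, CEG1, the guanylyltransferase gene, had 110, 1 and 3 counts and was at −5.78 (−11.68 to −3.85) for TAP and −4.67 (−7.19 to −3.30) for CIP/TAP against ribo depletion. ABD1, the cap methyltransferase gene, had 13, 8 and 78 and was at 3.02 (2.05 to 4.36) for CIP/TAP against TAP and 2.85 (2.04 to 3.87) for CIP/TAP against ribo depletion. CEG1 was the 1 gene measured in TAP against ribo depletion and ABD1 the 1 gene measured in CIP/TAP against TAP, and each reached the minimum through its high table alone. Of 6 termination genes 2 were measured. RTT103, whose product binds the polymerase tail domain, had 921, 459 and 176 counts and was at −1.56 (−1.83 to −1.31) for CIP/TAP against TAP and −2.08 (−2.32 to −1.84) for CIP/TAP against ribo depletion. RAI1, partner of the exonuclease Rat1, had 996, 1356 and 1540 and was within 2-fold in each comparison, but 2-fold higher than ribo depletion in TAP and in CIP/TAP with total counts and with upper-quartile factors. Of the 6 genes of TRAMP and the nuclear exosome, which trim and degrade nuclear RNA, 0 were measured. Over the 6 lists with 38 genes, 6 of 14 measured were higher and 2 lower in CIP/TAP against TAP, 0 of 9 higher and 5 lower in TAP against ribo depletion, and 6 of 13 higher and 4 lower in CIP/TAP against ribo depletion. Of all measured identifiers 22.2% were higher and 15.6% lower in the first comparison, 31.9% and 38% in the second, and 36.4% and 35.6% in the third. The medians of the lists were 0.92, −1.08 and 0.94, beside 0.16, −0.18 and 0.02 for all measured identifiers. In CIP/TAP against TAP all higher genes but PAN2 reached the minimum through CIP/TAP alone, and in CIP/TAP against ribo depletion all did. A difference was thus built into their being measured, so nothing is read from the tallies and medians of these comparisons. In TAP against ribo depletion the direction depended on the scaling, since total counts gave 2 higher and 3 lower of 9 with a median of 0.20, and upper-quartile factors 2 and 4 with −0.71.

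The identifiers most like FIP1 and CLP1 over the 3 tables were found by the Euclidean distance of log2(CPM + 1), among 1938 identifiers with at least 50 counts in all. PRI2 was nearest to FIP1 at a distance of 1.76, with 102, 0 and 99 counts, followed by DLD2 at 1.86 (45, 0 and 91) and BUD13 at 1.91 (168, 0 and 125). SLM5 was nearest to CLP1 at a distance of 0.096, with 0, 139 and 160 counts, followed by SUR1 at 0.335 (0, 103 and 164) and NFT1 at 0.548 (0, 180 and 131). The neighbours of FIP1 were farther from it than those of CLP1, and all 3 had fewer CIP/TAP counts than its 237. CLP1, SLM5, SUR1 and NFT1 each have a tandem upstream gene, as do 2831 of all 5797 identifiers, and that of NFT1 lies 3214 bp off. Among those like FIP1, DLD2 has a tandem upstream gene, as FIP1 has, while PRI2 and BUD13 have divergent ones.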

How the data were processed

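SMORE-seq data of wild-type yeast were analysed. Each deposited table gives unnormalized whole-number counts for every gene identifier, per the file headers, and the values are whole. Tools named in the submitters' processing notes are BWA 0.6.2, featureCounts, bedtools and bcl2fastq, and the named build is sacCer3; their order and settings are not stated there. Which feature and strand were counted, and how 3 ribo depletion samples became 1 table, was not given in the sources used here.

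Symbols, positions and neighbours came from a RefSeq gene table of R64, which matched 5794 identifiers and all 10 genes. Strand came from the systematic names. Scaling used the TMM factors of edgeR 4.0.16 (R 4.3.3), fitted to the 2 tables compared. The log2 ratio has 0.5 added to each count and an exact Clopper-Pearson 95% interval conditional on the summed count (scipy 1.17.1, Python 3.11.15). Ratios were measured from 50 counts over both tables, and 2-fold or more was counted. A ratio against 0 counts is a lower bound from 3 counts per table. Without molecular identifiers, reads are not independent molecules, and all intervals and floors describe counting error alone. The steps were tested on simulated Poisson counts with fewer changed genes than were called here. Those counts were independent, so the test does not show that the scaling and intervals hold for these tables.

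The members, lists and rules were chosen with earlier results of these data known. The rule named all 10 genes, their upstream neighbours, at most 4 genes per list at least 2-fold apart, the 3 identifiers most like FIP1 and CLP1, and the strain genes. Genes named with 0 or few counts, or within 2-fold, were chosen after their values were seen. A planned description of promoter motifs was not run, since promoter sequences were not used here. Alternatives were total counts, upper-quartile factors, DESeq2 1.42.0 size factors, TMM factors over all 3 tables, 5 added to each count, and other count minimums.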

Additional observations from a re-analysis of the deposited data

How the results depend on the processing

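No paired analysis was possible because each comparison had 1 table per group, and for the same reason no replicate could be left out. The alternatives gave 138 ratios of the 6 measured genes, of which 20 moved beyond their counting interval. Many of the 138 could not move, so these numbers do not measure stability. A different minimum leaves a ratio as it is, and TMM factors over all 3 tables repeated the ratios of both CIP/TAP comparisons. Of the 138, 0 that were 2-fold apart changed sign and 3 crossed the 2-fold line. All 3 were in TAP against ribo depletion. RNA14 was at 1.30 and RNA15 at 2.17 under total counts, and RNA15 at 1.26 under upper-quartile factors. Counts of calls depended on the minimum. For CIP/TAP against TAP, 622 of 2530 measured identifiers were higher and 783 lower with a minimum of 10 counts. The calls were 123 and 49 of 908 with 200, and 848 and 1115 of 3145 with none, where PCF11 made 2 lower members. For TAP against ribo depletion, 1100 of 2547 were higher and 859 lower with 10, and 206 and 483 of 1023 with 200. With none they were 1486 and 1118 of 3232. With 200, FIP1, CLP1 and YSH1 were no longer measured. Of PAP1, RNA14 and RNA15, which still were, 0 were higher and 1 was lower. For CIP/TAP against ribo depletion, 960 of 2370 were higher and 876 lower with 10, and 270 and 461 of 1077 with 200. With none they were 1350 and 1183 of 3113. With 200, YSH1 and CLP1 were no longer measured. Of FIP1, PAP1, RNA14 and RNA15, which still were, 2 were higher and 1 was lower, with FIP1 chosen for its counts. Total counts gave 850 higher and 381 lower of 1646 for TAP against ribo depletion, with 4 of the 6 measured genes higher. For CIP/TAP against ribo depletion total counts gave 868 higher and 393 lower of 1700. A limit of 50 counts was passed by 1210 identifiers in ribo depletion and 1219 in TAP. With 1000 bp in place of 500 bp, 6 of the genes had a close divergent neighbour. The 1 count of FIP1 in TAP limits its ratios, and 3 genes with 0 counts gave none.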

Other observations

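Downstream neighbours of the machinery genes were counted as well. RIM8, convergent with RNA15 at 415 bp, had 8 counts in ribo depletion, 3 in TAP and 62 in CIP/TAP. APC5, in tandem 238 bp downstream of CLP1, had 0, 0 and 46. SIR4, convergent with PCF11 at 278 bp, had 1, 10 and 0. The downstream neighbours BUD4, OSH6, GPI11, MSL5, DBP9 and SMF1 of FIP1, PAP1, CFT1, CFT2, YSH1 and HRP1 had 0 counts in all 3 tables, and ARG7 beside RNA14 had 0, 1 and 0.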
